A study of Mus musculus with 6 samples.

Results

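The vascular endothelial growth factor (VEGF) family was followed through 10 genes: the ligand genes Vegfa, Vegfb, Vegfc, Vegfd (formerly Figf) and Pgf, the receptor genes Flt1, Kdr and Flt4, and the co-receptor genes Nrp1 and Nrp2. They were chosen by symbol, as the probe sets that the platform annotation assigns to exactly 1 of these genes, and 25 of 45037 probe sets, standing for 10 of 18193 genes, met that rule. The labels describe the cells as endothelial cells that had entered Matrigel, a gel of basement membrane proteins. The gel lay implanted intraperitoneally in Balb/c nude mice, which lack a thymus. In the MFAP5 group the gel had been mixed with recombinant microfibrillar-associated protein 5, a glycoprotein of elastic microfibrils, and in the Control group it had not. Each group had 3 samples on 1 Affymetrix array each, and the labels give no age, dose, time in the animal, species of the protein or number of animals behind a sample. The p-values therefore measure the spread between these samples.

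VEGF ligands are secreted dimers that open the programme of vessel growth. VEGF-A binds the receptors encoded by Flt1 and Kdr, of which Kdr carries most of the signal for endothelial division, migration and permeability, while Flt1 binds tightly, signals weakly and also exists as a soluble trap. VEGF-B and placental growth factor, the product of Pgf, bind Flt1 but not Kdr. VEGF-C and VEGF-D act on Flt4, the receptor of lymphatic vessels and of sprouting blood vessels. The neuropilins Nrp1 and Nrp2 have no kinase domain and present ligands to these receptors.

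Values were log2 signals centred on the median of each probe set over the 6 arrays, so that 0 is the middle of the 6 arrays, 1 unit is taken as a 2-fold change, and levels of different genes cannot be compared. Neither the log base nor the direction of the values is stated: the base was inferred from their range, and a higher value was taken as more RNA, on which the sign of every difference rests. Probe sets of 1 gene were averaged. Array medians over all probe sets lay between -0.026 and 0 in the MFAP5 arrays, against -0.012 to 0.049 in the Control arrays. Control replicate 1 stood apart from the other Control arrays: it correlated, over probe sets that are no independent replicates, at -0.028 with replicate 2 and 0.020 with replicate 3, and these correlated with each other at 0.69. Hybridization spike-ins had relative signals of -0.038 to -0.0065 in the MFAP5 arrays and of -0.32, 0.64 and 0.65 in Control replicates 1, 2 and 3. Because each probe set was centred, the labelled cell type could be checked only by differences: of 25 endothelial markers 21 had a lower mean with MFAP5, as 65.6% of all genes did, and none passed the test (10 had an unadjusted p under 0.05, as did 19.7% of all genes). Without Control replicate 1, 8 were called lower and 1 higher, where 14.7% of all genes were called. Their median log2 difference was -0.23, beside -0.079 over all genes. Markers of other cell types differed too. Called lower were 9 of 10 adipocyte, 3 of 8 neutrophil, 1 of 9 fibroblast and 1 of 11 pericyte and smooth muscle markers. Over all genes 2.79% were called lower. No macrophage or mesothelial marker was called, and none of these lists had a gene called higher. In such samples, fewer cells of a type and less RNA per cell cannot be told apart.

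The clearest change of the family was in a ligand. Vegfb was 1.90-fold lower with MFAP5 and was the 1 member of 10 past the threshold (limma, adjusted p under 0.05, over all 18193 genes), in a comparison where 3.55% of all genes were called and 2.79% were called lower. None of the 3 receptors and neither co-receptor passed. Of the 10 members 5 had a higher and 5 a lower mean with MFAP5, and their median log2 difference was 0.0068. In 2 of them, Vegfb and Vegfd, all MFAP5 values lay below all Control values, as they did in 17.8% of all genes, and in none did they lie above, as they did in 6.51% of all genes. Without Control replicate 1 the call of Vegfb was again the only one among the 10 members, where 14.7% of all genes were called. The differences of the other members then lay between -0.32 for Flt1 and 0.40 for Vegfc.

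**Figure D1:**
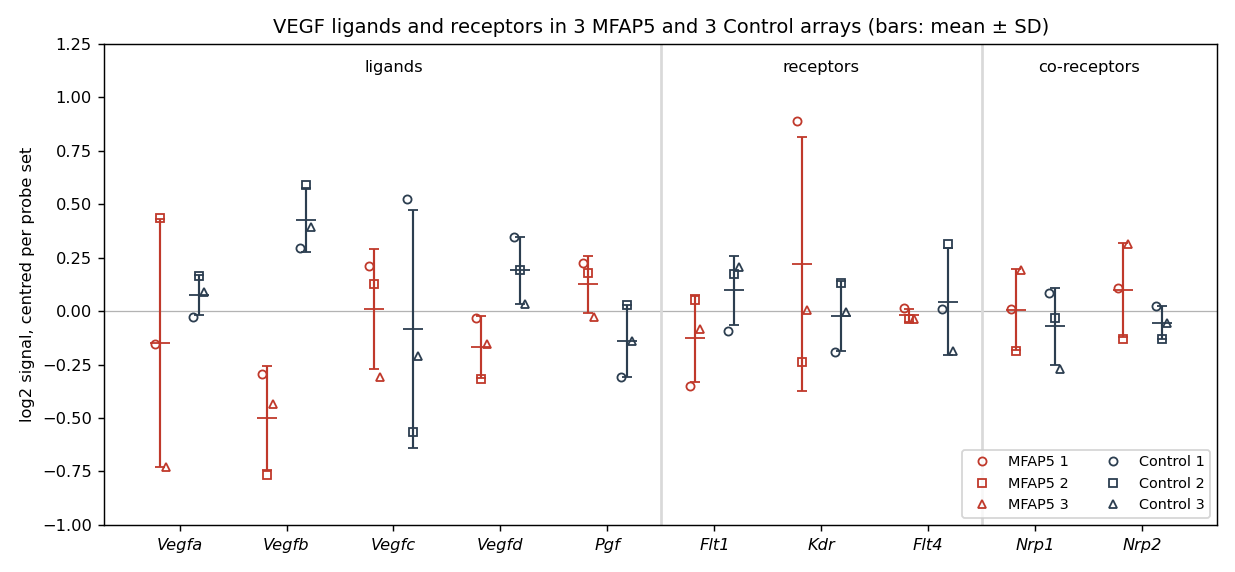
Centred log2 signal (y axis) of each member gene (x axis) in 3 MFAP5 arrays (red, left) and 3 Control arrays (dark, right), with symbols for replicates 1, 2 and 3 and bars for mean ± SD. The groups lie apart in Vegfb and in Vegfd, and the MFAP5 values of Vegfa and Kdr are spread widely.

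The sequences ahead of 3 ligand genes are printed because 2 of these genes, Vegfb and Vegfd, were the members whose groups did not overlap and the third, Vegfa, had a spread among MFAP5 arrays that few genes exceeded. They are the 250 bases before the annotated start in RefSeq (GRCm38.p6), 5′ to 3′ on the strand of the gene. Vegfb lies at chr19:6987652-6987901 (minus strand), Vegfd at chrX:164373272-164373521 (plus strand) and Vegfa, at the outer of its 2 listed starts, at chr17:46032378-46032627 (minus strand). Capitals mark each match, on either strand, of the GC box GGGCGG or of the TATA box TATAAA. Adjoining matches run together.
Vegfb: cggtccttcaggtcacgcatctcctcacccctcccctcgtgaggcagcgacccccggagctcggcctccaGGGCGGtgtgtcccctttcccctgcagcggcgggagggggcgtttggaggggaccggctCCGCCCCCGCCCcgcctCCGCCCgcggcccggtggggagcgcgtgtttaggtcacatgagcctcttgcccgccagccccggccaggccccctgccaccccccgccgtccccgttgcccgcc
Vegfd: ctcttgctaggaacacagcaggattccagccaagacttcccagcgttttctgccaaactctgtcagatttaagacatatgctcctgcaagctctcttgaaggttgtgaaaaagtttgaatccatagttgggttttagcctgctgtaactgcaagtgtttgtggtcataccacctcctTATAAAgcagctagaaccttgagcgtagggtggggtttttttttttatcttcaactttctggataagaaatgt
Vegfa: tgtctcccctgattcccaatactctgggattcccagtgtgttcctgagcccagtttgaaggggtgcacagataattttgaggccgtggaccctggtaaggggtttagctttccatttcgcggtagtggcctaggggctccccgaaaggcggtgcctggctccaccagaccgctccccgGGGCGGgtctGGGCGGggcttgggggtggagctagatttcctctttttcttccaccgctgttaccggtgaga
The Vegfb stretch held 4 GC boxes, 26 CpG dinucleotides and 76.4% G and C, the Vegfd stretch no GC box, 1 TATA box, 2 CpG dinucleotides and 42.4% G and C. The Vegfa stretch held 2 GC boxes and 11 CpG dinucleotides, and 59.2% of its bases were G or C. Over 32851 stretches of this length, GGGCGG occurred in 32.7% and TATAAA in 12.4%, with a median of 6 CpG dinucleotides. The 2 ligand genes whose groups lay apart thus differed in these letters. ACGTG, the core of the site bound by hypoxia-inducible factors, was found in none of these 3 stretches, in 1 place in the stretch before the other listed start of Vegfa (chr17:46025164-46025413, not printed) and in 16.6% of all stretches. A match or its absence is a description of these windows only.

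Vegfb encodes the ligand that binds Flt1 and neuropilin 1 and that is known for abundant expression in heart, muscle and brown fat. Its signal was -0.29, -0.77 and -0.43 in MFAP5 replicates 1, 2 and 3, against 0.29, 0.59 and 0.39 in Control replicates 1, 2 and 3. Every MFAP5 array lay below every Control array, with MFAP5 replicate 2 the lowest. The log2 difference was -0.93 ± 0.14 (SE, n = 3 per group; 95% interval -1.26 to -0.60; limma adjusted p = 0.0115), at rank 262 of 18193 genes by p. It was -0.99 without Control replicate 1 (adjusted p = 0.0136). The call was lost without Control replicate 2 (-0.84, adjusted p = 0.0630), without Control replicate 3 (-0.94, adjusted p = 0.0622) and with the spike-in signal in the model (-0.86, adjusted p = 0.0545). A single probe set, 1451803_a_at, stands for the gene, so no other probe set checks this value; it was the 1 called among the 25 member probe sets (adjusted p = 0.0178), where 3.28% of all probe sets were called, 1.72% lower and 1.56% higher.

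The same 3 MFAP5 arrays had lower adipocyte markers: all 10 measured markers of a list of 12 were lower without overlap and 9 were called. Over all genes 17.8% were lower without overlap and 2.79% were called lower. The list medians were -4.12, -2.64 and -0.96 in MFAP5 replicates 1, 2 and 3, against 1.16, 1.35 and 1.26 in the Control replicates. The difference between 3' and 5' probe sets of beta-actin was 0.036 to 0.14 in MFAP5 arrays and -0.053 to -0.0048 in Control arrays. Its groups lay apart (exact permutation test, two-sided, n = 3 per group, p = 0.1, the smallest this design can give). For Gapdh it was -0.038 to 0.086 in MFAP5 arrays and -0.16 to 0.033 in Control arrays. These Gapdh ranges overlapped (exact permutation test, two-sided, n = 3 per group, p = 0.4). Each probe set was centred, so these differences compare arrays and are not 3' to 5' ratios. The part of the adipocyte signal or of these differences in the Vegfb value was not tested.

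Vegfd, a ligand that in mouse acts through Flt4, was the other member with separate groups. It stood at -0.032, -0.32 and -0.15 in MFAP5 replicates 1, 2 and 3, against 0.35, 0.19 and 0.034 in Control replicates 1, 2 and 3. MFAP5 replicate 1 and Control replicate 3 lay closest. The log2 difference of -0.36 ± 0.12 missed the threshold (n = 3 per group, SE; limma adjusted p = 0.161, unadjusted p = 0.0181; 95% interval -0.64 to -0.079), and 19.7% of all genes had an unadjusted p under 0.05, 14.4% lower and 5.33% higher. All 3 probe sets of Vegfd pointed the same way without overlap, as 23.2% of all probe sets did in one direction or the other, at -0.44, -0.35 and -0.30, which is a fact about 1 transcript measured 3 times and not about 3 replicates. In 2 of these probe sets the groups nearly touched. For 1438954_x_at MFAP5 replicate 1 stood at -0.00032 and Control replicate 2 at 0.00032. For 1438953_at MFAP5 replicate 1 stood at -0.012 and Control replicate 3 at 0.012. Without Control replicate 1 the difference of the gene was -0.28 (limma adjusted p = 0.150).

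Pgf, which encodes the Flt1 ligand placental growth factor, was 0.22, 0.18 and -0.030 in MFAP5 replicates 1, 2 and 3, against -0.31, 0.030 and -0.14 in the Control replicates. MFAP5 replicate 3 fell among the Control values, and the difference of 0.26 ± 0.12 did not pass (limma adjusted p = 0.283; SE, n = 3 per group; 95% interval -0.019 to 0.55). Of the ligands particular to Flt1, Vegfb thus passed the test and Pgf, with a mean difference of the opposite sign, did not.

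Vegfc, the main ligand of Flt4, was 0.21, 0.13 and -0.31 in the MFAP5 replicates, against 0.52, -0.56 and -0.21 in the Control replicates. The spread lay in the Control arrays, where replicate 1 was the highest and replicate 2 the lowest of the 6, and their SD of 0.56 was larger than that of 99.3% of genes or equal to it. The difference was 0.094 ± 0.26 (SE, n = 3 per group; limma adjusted p = 0.865; 95% interval -0.51 to 0.69). Its 3 probe sets disagreed in direction, at -0.25, 0.44 and 0.086, the second reaching 0.93 without Control replicate 1 (adjusted p = 0.0315), and its sign turned with 4 of 15 other settings, among them leaving out Control replicate 2 (-0.15) or MFAP5 replicate 1 (-0.0069).

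Vegfa, the principal angiogenic ligand and a classical target of hypoxia-inducible factors, had no difference between groups past the threshold but an unusual spread within one of them. It was -0.15, 0.43 and -0.73 in MFAP5 replicates 1, 2 and 3, against -0.027, 0.16 and 0.090 in Control replicates 1, 2 and 3. MFAP5 replicates 2 and 3 were the highest and the lowest of the 6 arrays, and the Control values lay between them. The SD was 0.58 in the MFAP5 group, at the 98.5th percentile of all genes, and 0.095 in the Control group, at the 27.3th percentile. Both probe sets had this order among MFAP5 arrays, with 0.67 and 0.20 in replicate 2 and -0.73 in each in replicate 3, although in the second of them Control replicate 2 stood higher still at 0.33. The group difference was -0.22 ± 0.25 (SE, n = 3 per group; limma adjusted p = 0.644; 95% interval -0.80 to 0.35), and it was 0.066 without MFAP5 replicate 3 and -0.52 without MFAP5 replicate 2 (adjusted p = 0.875 and 0.212).

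Genes of the hypoxia response showed the same split between MFAP5 arrays. Of 28 genes for hypoxia-inducible factors, their prolyl hydroxylases and their targets, 24 were highest among MFAP5 arrays in replicate 2, 24 were lowest in replicate 3, and 21 had the order of Vegfa, with replicate 2 highest and replicate 3 lowest. That was 75% of the list, where 18.8% of all genes other than the 10 members had that order. This order was looked at because Vegfa had it, so it is a description and carries no test. The list medians were 0.00032, 0.14 and -0.34 in MFAP5 replicates 1, 2 and 3, against -0.0059, -0.012 and -0.00035 in the Control replicates. Slc2a1, the glucose transporter induced by hypoxia, was -0.064, 0.76 and -0.77 in the MFAP5 replicates and between -0.12 and 0.051 in the Control replicates. Ndrg1, a stress-responsive target of these factors, was 0.15, 0.78 and -0.79 in the MFAP5 replicates, against -0.14 to 0.031 in the Control replicates. Egln3, a prolyl hydroxylase gene that hypoxia induces, was -0.20, 0.079 and -1.36 in the MFAP5 replicates and -0.0024 to 0.14 in the Control replicates. Among the marker lists, 4 of 8 mesothelial, 3 of 9 fibroblast and none of 10 adipocyte markers had this order. The oxygen supply of the plugs was not measured.

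**Figure D2:**
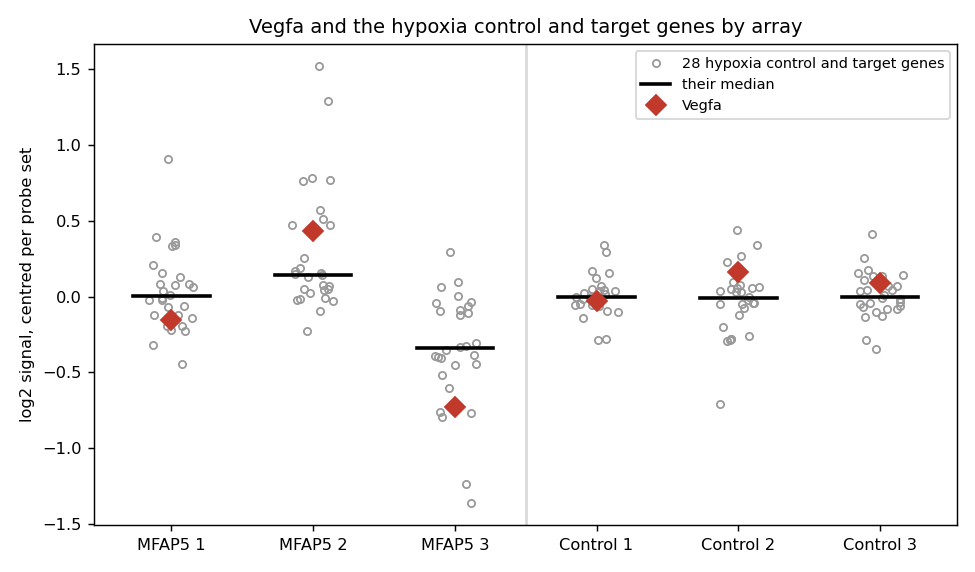
Centred log2 signal (y axis) in each of the 6 arrays (x axis) for Vegfa (red diamonds), for 28 genes of hypoxia control and response (grey circles) and for their median (black bars). Vegfa and the median are highest in MFAP5 replicate 2, at 0.43 and 0.14, and lowest in MFAP5 replicate 3, at -0.73 and -0.34.

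Between groups none of the 28 hypoxia genes passed the threshold (limma), and their median difference was -0.023. An unadjusted p under 0.05 was found for 7 of them, where 19.7% of all genes had one. The smallest p belonged to Kdm3a, a histone demethylase gene, at 0.50 ± 0.13 (adjusted p = 0.0743), and Pfkfb4, of glycolytic control, at 0.51 ± 0.13 (adjusted p = 0.0764). Hif1a and Epas1, the genes of the oxygen-regulated factor subunits, stood at 0.54 and -0.51 (adjusted p = 0.133 and 0.159). Without Control replicate 1, 2 of the 28 genes were called higher and 1 lower, where 14.7% of all genes were called. Without MFAP5 replicate 3, 1 was called higher, where 2.98% of all genes were called in either direction.

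No receptor gene passed the test. Flt1 was -0.35, 0.051 and -0.082 in MFAP5 replicates 1, 2 and 3, against -0.091, 0.18 and 0.21 in the Control replicates. All 4 of its probe sets had a lower mean with MFAP5, between -0.36 and -0.034, but the groups overlapped in each and the gene difference of -0.22 ± 0.14 did not pass (limma adjusted p = 0.399; SE, n = 3 per group; 95% interval -0.54 to 0.089). Kdr, measured by 1 probe set, was 0.89, -0.24 and 0.0053 in the MFAP5 replicates, against -0.19, 0.13 and -0.0053 in the Control replicates. The mean difference of 0.24 ± 0.26 rested on MFAP5 replicate 1, without which it was -0.094 (limma adjusted p = 0.631 with it and 0.805 without it; 95% interval with it -0.35 to 0.84). The SD of Kdr in the MFAP5 group, 0.59, was at the 98.6th percentile of all genes, and the array that was high for Kdr was not the one that was high for Vegfa.

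Flt4, the lymphatic receptor gene, was nearly flat across the MFAP5 arrays, at 0.017, -0.036 and -0.038, while the Control replicates stood at 0.0086, 0.31 and -0.19. Its difference was -0.064 ± 0.13 (SE, n = 3 per group; limma adjusted p = 0.816; 95% interval -0.37 to 0.24), with a sign that turned under 4 of 15 settings. None of 5 measured lymphatic markers was called (limma), and 2 had an unadjusted p under 0.05, as did 19.7% of all genes. Of these 5, 4 had a lower mean with MFAP5, beside 65.6% of all genes, and their median difference was -0.094. Reln and Lyve1 stood at -0.46 and -0.51 (limma adjusted p = 0.18 and 0.25). Prox1, the defining transcription factor gene of lymphatic endothelium, had a difference of 0.0041.

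Nrp1, a co-receptor for VEGF-A and semaphorins, was 0.0095, -0.18 and 0.19 in the MFAP5 replicates and 0.086, -0.031 and -0.27 in the Control replicates, a difference of 0.077 ± 0.14 (limma adjusted p = 0.780; SE, n = 3 per group; 95% interval -0.24 to 0.39). Nrp2, a co-receptor for VEGF-C and semaphorins, was 0.11, -0.13 and 0.31 in the MFAP5 replicates and 0.024, -0.13 and -0.056 in the Control replicates, at 0.15 ± 0.13 (adjusted p = 0.538; 95% interval -0.14 to 0.45). Both genes overlapped between groups. The 4 probe sets of Nrp2 did not act alike: 3 lay between -0.16 and 0.050, and the fourth, 1447343_at, was 0.80 ± 0.19. That probe set was 0.44, 0.21 and 0.95 in MFAP5 replicates 1, 2 and 3, against -0.22, -0.37 and -0.21 in Control replicates 1, 2 and 3. Its groups lay apart and it narrowly missed the threshold (limma adjusted p = 0.0614). It passed in 5 of 12 other settings run on probe sets, with adjusted p between 0.0129 and 0.217. Which stretch of Nrp2 it reads was not determined here.

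**Figure D3:**
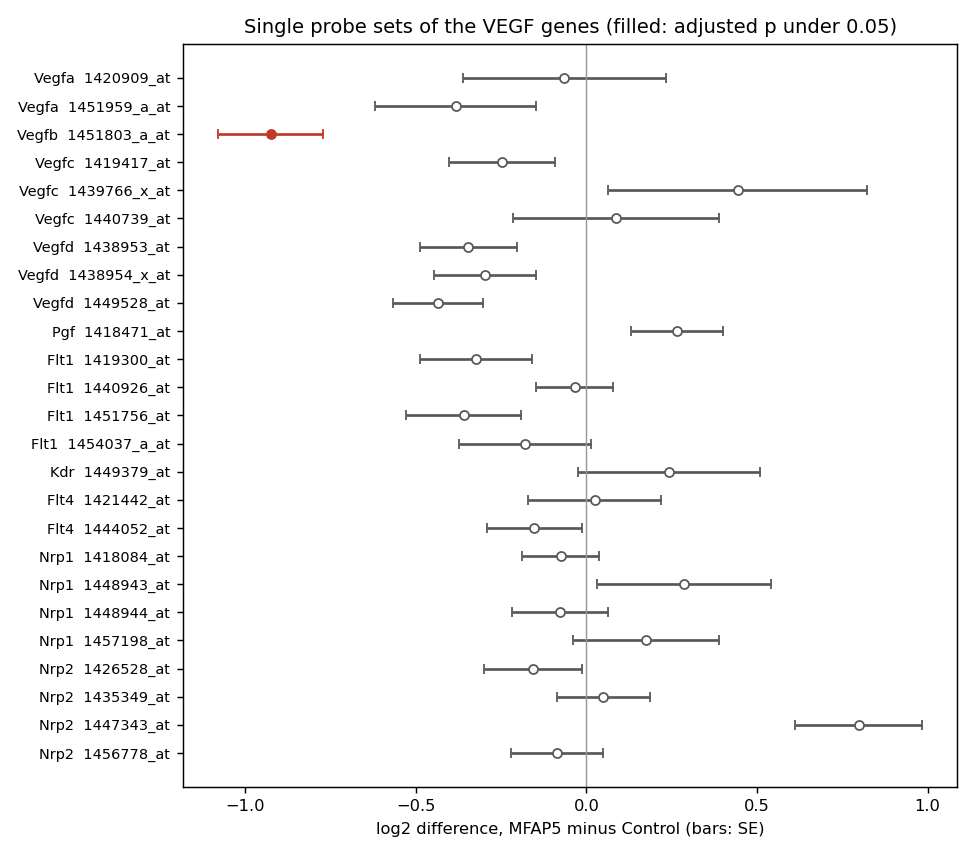
Log2 difference, MFAP5 minus Control (x axis, bars are SE), of each of the 25 probe sets of the VEGF genes (y axis), with a filled point where the adjusted p was under 0.05. The Vegfb probe set at -0.93 is the filled one, and 1 of the 4 Nrp2 probe sets stands at 0.80, away from the other three.

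Receptor signals were also set against the endothelial markers of the same array, since a receptor gene of endothelial cells can move with their share of the RNA. The median of the 25 markers was -0.073, -0.14 and -0.052 in MFAP5 replicates 1, 2 and 3, against 0.0018, 0.22 and 0.15 in the Control replicates. Relative to it, Kdr was 0.96, -0.094 and 0.057 in the MFAP5 replicates, against -0.19, -0.091 and -0.16 in the Control replicates, and MFAP5 replicate 2 overlapped with the Control arrays. The relative difference was 0.46 for Kdr, 0.37 for Nrp2, 0.29 for Nrp1, 0.15 for Flt4 and -0.010 for Flt1. Groups overlapped in all 5, and the exact permutation tests (two-sided, n = 3 per group) gave p = 0.2 for Kdr and Nrp2, 0.3 for Nrp1 and Flt4, and 1 for Flt1, where the smallest possible p is 0.1. Without MFAP5 replicate 1 the relative difference of Kdr was 0.13, and that of Flt1 was 0.11. Without Control replicate 3 it was 0.022 for Flt4, 0.18 for Nrp1 and 0.031 for Flt1.

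**Figure D4:**
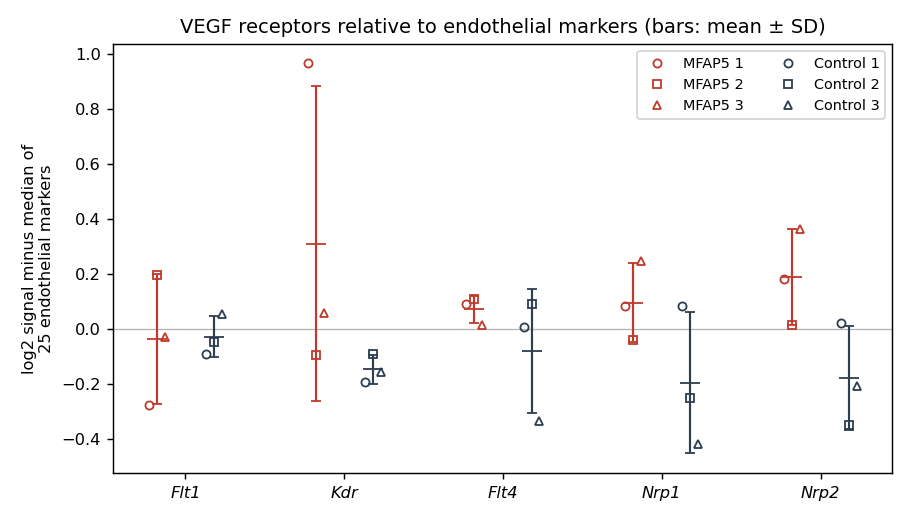
Log2 signal of each receptor and co-receptor gene minus the median of 25 endothelial markers of the same array (y axis), in 3 MFAP5 arrays (red, left) and 3 Control arrays (dark, right), with mean ± SD. The groups overlap for all 5 genes, and the high Kdr value of 0.96 belongs to MFAP5 replicate 1.

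Downstream of the receptors, Nos3 and Shc1 fell, and these were the 2 called among 35 measured of 42 listed signalling genes (0 higher, 2 lower), whose median difference was 0.026, where 2.79% of all genes were called lower. Nos3, the endothelial nitric oxide synthase gene that acts in VEGF-driven permeability and dilation, was -0.81, -0.44 and -0.31 in the MFAP5 replicates, against 0.31, 0.77 and 0.81 in the Control replicates. Its difference was -1.15 ± 0.18 (limma adjusted p = 0.0102; SE, n = 3 per group). It missed the threshold without Control replicate 2 or 3, with a highest adjusted p of 0.0637. Of 25 endothelial markers 21 had a lower mean in the same arrays, beside 65.6% of all genes. The part of endothelial cell share in the Nos3 value was not tested. Shc1, an adaptor gene, was at -0.60 ± 0.13 (adjusted p = 0.0456) and passed in 8 of 15 other settings. Without Control replicate 1 the list had 2 higher and 3 lower genes, where 14.7% of all genes were called. It had 1 lower gene without any 1 of the MFAP5 replicates, and none without Control replicate 2 or 3. The share of all genes called was 2%, 2.58% and 2.98% without MFAP5 replicates 1, 2 and 3. That share was 1.35% and 1.2% without Control replicates 2 and 3.

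Among 28 genes of receptor partners and regulators, Mcam was called lower and none higher, a share near the 3.55% of all genes called. Mcam encodes CD146, a surface glycoprotein of endothelium and pericytes that acts as a co-receptor of Kdr. It was -1.79, -1.82 and -0.69 in the MFAP5 replicates, against 0.69, 0.99 and 0.74 in the Control replicates, with a difference of -2.24 ± 0.28 (limma adjusted p = 0.00359; SE, n = 3 per group), and it passed in all 14 other settings in which it was measured. Of 11 pericyte and smooth muscle markers, 8 had a lower mean, beside 65.6% of all genes, and 1, Kcnj8, was called lower, beside 2.79%. Lower without overlap were 3 of them, Kcnj8 (-0.90), Abcc9 (-0.78) and Rgs5 (-0.45), beside 17.8% of all genes, and the rest overlapped. The list medians were -0.18, -0.078 and 0.0082 in the MFAP5 replicates and 0.021 to 0.066 in the Control replicates. The part of these cells in the Mcam value was not tested. The median of the partner list was -0.13. Without Control replicate 1, 2 of its genes were called lower, where 14.7% of all genes were called in either direction. Without MFAP5 replicate 3, 1 of its genes was called higher, where 2.98% of all genes were called in either direction.

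Of 17 measured genes that process VEGF ligands or release them from matrix, 1 was called higher, Adamts1, and 1 lower, Mmp9. Over all genes 0.759% were called higher and 2.79% lower, and the median difference of this list was -0.052. Adamts1 encodes a protease known to bind VEGF-A and to limit vessel growth. It was 0.74, 0.59 and 1.09 in the MFAP5 replicates, against -0.65, -0.59 and -0.59 in the Control replicates, at 1.41 ± 0.14 (limma adjusted p = 0.00121; SE, n = 3 per group), and it passed in all 15 other settings. Mmp9, a gelatinase gene known to release matrix-bound VEGF-A, was at -0.87 ± 0.12 (adjusted p = 0.00808), and had an adjusted p of 0.0546 without Control replicate 3. Neutrophils carry this enzyme, and 7 of 8 measured neutrophil markers had a lower mean in the same arrays with 3 called lower, beside 65.6% and 2.79% of all genes. Their list medians were -0.29 to 0.0054 in MFAP5 arrays and 0.087 to 0.56 in Control arrays. Their part in the Mmp9 value was not tested. Without MFAP5 replicate 3 the processing list had 2 lower genes, where 2.98% of all genes were called in either direction.

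Genes known to be induced by VEGF-A in endothelial cells rose more often than they fell: 6 of 26 were called higher and 1 lower, where 0.759% of all genes were called higher, and their median difference was 0.11. These lists were drawn up with the change of early response genes in these samples already known, so the count is not independent evidence of a direction. The smallest p belonged to the zinc-finger factor gene Egr3 (1.24 ± 0.14), the ERK phosphatase gene Dusp5 (1.24 ± 0.18), the cyclooxygenase gene Ptgs2 (1.44 ± 0.23) and the chemokine gene Cxcl1 (1.57 ± 0.27), with limma adjusted p between 0.00230 and 0.0171 (SE, n = 3 per group). Rcan1, the calcineurin inhibitor gene that VEGF-A induces through NFAT, was at 0.60 (adjusted p = 0.186), with its high value of 0.93 in MFAP5 replicate 2. Among the genes that also stand on the list of tip cell genes, Dll4, the Notch ligand gene, was at 0.075, Angpt2, a Tie2 ligand gene, at -0.015 and Esm1, which encodes endocan, at -0.011, and none of these passed. Apln, which encodes the peptide apelin and stands on both lists, was the lower gene, at -0.59 (adjusted p = 0.0296). The count of higher genes was 3 without MFAP5 replicate 1, 1 without Control replicate 2 and 2 without Control replicate 3. In these settings 2%, 1.35% and 1.2% of all genes were called in either direction. The count of higher genes was 9 without Control replicate 1, where 14.7% of all genes were called in either direction. No gene of the list was called lower without any 1 of the MFAP5 replicates or without Control replicate 2 or 3.

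Of 19 genes enriched in tip cells, the leading cells of a sprout, 5 were called lower and none higher. Over all genes 2.79% were called lower and 0.759% higher, and the median difference of the list was -0.15. This list too was chosen with earlier results of these data known, so the count is not independent evidence of a direction. The 5 lower genes were Mcam, Apln, the basement membrane nidogen gene Nid2 and the collagen IV genes Col4a1 and Col4a2. Nid1, the other nidogen gene listed, was at 0.70 with overlapping groups and did not pass (limma adjusted p = 0.11). Nid2 was at -1.20 ± 0.16, Col4a2 at -2.14 ± 0.33 and Col4a1 at -2.22 ± 0.41 (limma adjusted p = 0.00474, 0.0110 and 0.0242; SE, n = 3 per group). Collagen IV, nidogen and CD146 are matrix or adhesion proteins that other cell types, adipocytes and pericytes among them, also make, and the same arrays held the lower adipocyte markers described above. The part of such cells in these values was not tested. Col4a1 was -2.07, -2.43 and -0.52 in the MFAP5 replicates, against 0.57, 0.53 and 0.56 in the Control replicates. The count of lower genes was 3 without MFAP5 replicate 1 and 2 without Control replicate 2 or 3. In these settings 2%, 1.35% and 1.2% of all genes were called in either direction. Without MFAP5 replicate 2, 1 gene of the list was called higher, where 2.58% of all genes were called in either direction. Without Control replicate 1, 1 was also called higher, where 14.7% of all genes were called.

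**Figure D5:**
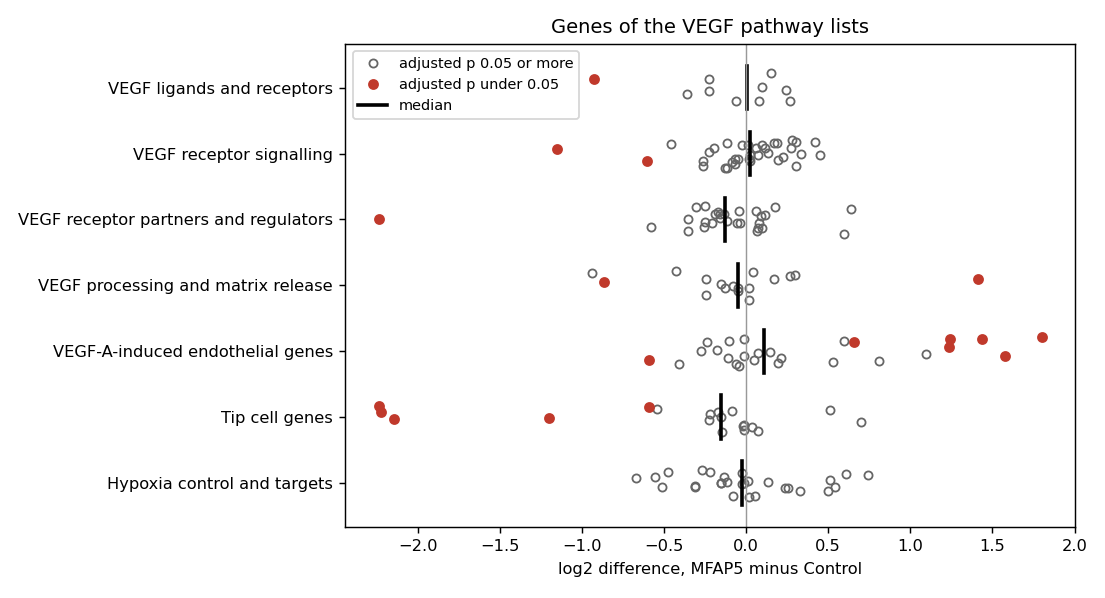
Log2 difference, MFAP5 minus Control (x axis), of the member genes and of the genes of 6 lists around them (y axis), with filled red points for an adjusted p under 0.05 and black bars for medians. The medians of all 7 groups lie between -0.15 and 0.11, the called tip cell genes lie at or below -0.59, and 6 called VEGF-A-induced genes lie at or above 0.66.

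Outside the family, the genes whose values were nearest to those of the 3 members of smallest p were found by the mean absolute difference over the 6 arrays. Genes found in this way share the group difference of the member by their selection, so their p-values are no separate support. Nearest to Vegfb were Plaat1, a phospholipase A and acyltransferase gene (0.080), and Dbp, a circadian transcription factor gene (0.083), both lower with MFAP5 at -0.92 and -0.91 (limma adjusted p = 0.00520 and 0.0197). Nearest to Vegfd were Map2k6, a kinase gene of the p38 pathway (0.034), and Ppl, which encodes periplakin (0.050). Nearest to Pgf were Caprin2 (0.030) and Nkain1 (0.047). None of these last 4 genes passed the threshold (limma adjusted p between 0.118 and 0.291).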

How the data were processed

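Total RNA of endothelial cells from 3 MFAP5 and 3 Control plugs was amplified, biotin-labelled and hybridized to 1-colour arrays, per the labels' protocols, which do not say how the cells were separated. The submitters' processing notes name MAS5, without its scaling. The deposited signals were taken as log2 because no probe set spanned more than 8.24 units, and each was centred, with medians at 0 within 5e-07. A natural log is possible, and every difference and fold would then be too small. Centring removed signal levels, so no background, dim-probe or detection step could be run, and precision is limited by the number of arrays.

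Control probe sets (64) were left out. Of 45037 probe sets, 34945 had 1 symbol, 932 several and 9160 none listed; 34741 symbols were updated through Entrez identifiers (RefSeq, GRCm38.p6). Groups were fitted with limma 3.58.1 in R 4.3.3 (lmFit, eBayes, two-sided, Benjamini-Hochberg over all genes or probe sets, threshold 0.05); single values by exact permutation. On simulated data for 18193 genes, recovery was 20% at a log2 change of 0.5, 88% at 1 and 96% at 2, for 50 genes per size, with 3 false calls among 154. Members and lists were chosen with earlier results of these data known: 14 lists of 244 genes, 229 measured. Named were all members, up to 4 called genes of smallest p per pathway list (or 2 uncalled), and 2 nearest genes of 3 members. Slc2a1, Ndrg1, Egln3, Hif1a, Epas1, Prox1, Reln, Lyve1, Rcan1, Dll4, Angpt2, Esm1, Apln and Nid1 were chosen after their values were seen. The 15 alternatives were other normalizations, probe set rules, filters, weights, covariates, the replicate block and leaving out each sample.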

Additional observations from a re-analysis of the deposited data

How the results depend on the processing

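The count of VEGF genes called lower was 0 in place of 1 with the spike-in signal in the model and with only plain _at probe sets, where Vegfb has none, and ranged from 0 to 1 with a sample left out; limma then found 3 and 1 members at an unadjusted p under 0.05. The count called higher was 1 in place of 0 with only probe sets of SD at or above the median, where Nrp2 rests on 1447343_at alone (0.80, adjusted p = 0.0152). By probe set, 1 was called higher with quantile normalization, the replicate block, that SD filter and array weights, and from 0 to 1 with a sample left out (1447343_at in each but without Control replicate 1, where it was a Vegfc probe set); 0 were lower with the spike-in covariate, and from 0 to 1 with a sample left out. Over the 6 pathway lists, 7 genes were called higher and 8 lower: 12 higher with the SD filter, 21 and 18 with array weights, 4 and 4 with the spike-in covariate, and 2 to 15 and 2 to 11 with a sample left out. Vegfd, Pgf, Flt1 and Nrp2 kept their sign in all settings run. Signs turned for Vegfa without MFAP5 replicate 3 (0.066), for Kdr without MFAP5 replicate 1 (-0.094), and for Vegfc without MFAP5 replicate 1 (-0.0069), without Control replicate 2 (-0.15), with plain _at probe sets (-0.081) and with the spike-in covariate (-0.23). They also turned for Flt4 without Control replicate 2 (0.070), with the probe set of largest SD or the SD filter (0.025) and with array weights (0.054), and for Nrp1 without MFAP5 replicate 3 (-0.016), without Control replicate 3 (-0.022), with the median of its probe sets (-0.032) and with the spike-in covariate (-0.0065). With a sample left out, the differences ranged from -0.52 to 0.066 for Vegfa, -0.15 to 0.40 for Vegfc, -0.094 to 0.47 for Kdr, -0.18 to 0.070 for Flt4 and -0.022 to 0.17 for Nrp1. Relative to endothelial markers Flt1 was 0.014 with their mean, and ranged from -0.13 to 0.11 with a sample left out. Over all genes, 68 were called higher and 295 lower without MFAP5 replicate 1, 760 and 1914 when Control replicate 1 was left out, 16 and 230 when Control replicate 2 was, 14 and 205 when Control replicate 3 was, 1125 and 2879 with array weights, 48 and 316 with the spike-in signal, 345 and 608 with the SD filter, and 223 higher with the probe set of largest SD. The causes were not tested. Same-numbered samples deviated together at correlations of 0.21, 0.055 and 0.085, not all above 0.1. Every sample but Control replicate 2 correlated best with its own number. The labels give only the number, and with so few samples these values cannot settle whether equal numbers were pairs. The replicate block called 153 genes higher and 590 lower in place of 138 and 508. It moved no call of a member gene (Vegfb limma adjusted p = 0.0258).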

Other observations

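Genes of fatty acid uptake are of interest beside Vegfb, since VEGF-B was reported in mouse work to act on lipid transport across endothelium. They were chosen after the values were seen, so their values are a description. Slc27a3, one of the fatty acid transport protein genes tied to VEGF-B in that work, was at -0.39 (limma adjusted p = 0.290), and Slc27a4, the other, at -0.14 (adjusted p = 0.661). Groups overlapped for both. Slc27a1, a further gene of that transport protein family, was at -0.71 (adjusted p = 0.0885), with all MFAP5 values below all Control values. Cd36, a fatty acid translocase gene, was -1.62, -1.14 and -0.22 in MFAP5 replicates 1, 2 and 3, against 0.89, 0.41 and 0.27 in the Control replicates, at -1.52 ± 0.32 (SE, n = 3 per group; adjusted p = 0.0430). The fatty acid binding protein genes Fabp5 and Fabp4, the second of them 1 of the adipocyte markers, were at -0.87 and -3.31 (adjusted p = 0.0444 and 0.0440). Lpl, the lipoprotein lipase gene, was at -0.96 (adjusted p = 0.0508), and Gpihbp1, its endothelial anchor, at -0.77 (adjusted p = 0.159). Ppargc1a, a coactivator gene of mitochondrial biogenesis, was -0.39, -0.37 and -0.29 in the MFAP5 replicates, against 0.56, 0.44 and 0.70 in the Control replicates, at -0.91 ± 0.11 (adjusted p = 0.00247), while Esrra, the gene of a nuclear receptor partner, was at 0.19 (adjusted p = 0.421). Adipocytes also express several of these genes, Cd36, Fabp5 and Lpl among them, and these arrays held lower signals of all 10 adipocyte markers. Their part in these values was not tested.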
